A study of Mus musculus with 4 samples.

Results

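Oncofetal liver genes are switched on in the fetal liver, silenced after birth and often expressed again in liver tumours. A list of 10 such genes was examined in Hepa1-6 cells, a mouse hepatoma line: Afp, H19, Igf2, Dlk1, Gpc3, Igf2bp1, Igf2bp2, Igf2bp3, Lin28b and Hmga2. The list was chosen by name, with earlier results of these data known. RPKM, a read density scaled to transcript length and to the mapped reads of a library, was summed over the RefSeq transcripts of each gene. Of the 10 genes, 9 were matched, among 23521 genes in all. H19 was not matched and is not analysed here. The Chd1KD cells (2 libraries) had received a lentivirus with an shRNA against Chd1, which encodes a chromatin remodeler that binds methylated histone H3. The Control cells (2 libraries) had received a lentivirus with a scrambled shRNA and are called wild type in the labels. Both groups spent 3 weeks under 4 μg/ml puromycin, and 10 μg of total RNA per library was enriched for poly(A) RNA. Whether a group's 2 libraries stem from independent infections is not stated, and p-values therefore reflect library-to-library spread alone, which could be technical.

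Alpha-fetoprotein, the product of Afp, is the main plasma protein of the fetal liver and a serum marker of hepatocellular carcinoma. It is encoded beside albumin and is held down in the adult liver by the zinc finger repressors Zhx2, Zbtb20 and Zfhx3. Igf2 and Dlk1 are imprinted genes for a fetal growth factor and a membrane protein of hepatoblasts, and Gpc3 encodes a cell surface heparan sulfate proteoglycan. Lin28b blocks maturation of the let-7 microRNAs. Hmga2 and the Igf2bp genes, which encode an architectural DNA-binding protein and 3 RNA-binding proteins that stabilise fetal transcripts, are known let-7 targets. let-7 pairs with the 3′ UTR of an mRNA mainly through its seed, bases 2 to 8.

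The let-7 seed and its matches are shown because they are the sequence feature that the RNA-binding members share. Of 11 mature mouse let-7 and miR-98 names in the RefSeq miRNA set (GRCm38.p6), 10 had the same seed, in capitals here.
mmu-let-7a-5p: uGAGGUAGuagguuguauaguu
mmu-let-7g-5p: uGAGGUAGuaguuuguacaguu
mmu-miR-98-5p: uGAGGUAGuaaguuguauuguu
The reverse complement of that seed, in DNA letters, is CTACCTC. It was searched on the mRNA strand in the 3′ UTR of the GENCODE M21 transcript paired with each member's RefSeq accession. It was found in 5 of the 9 matched members, with 4 matches each in Igf2bp1, Lin28b and Hmga2 and 1 each in Igf2bp2 and Igf2bp3. The 3′ UTRs of Afp, Igf2, Dlk1 and Gpc3 held none. Of 9812 tested genes with a 3′ UTR, 9.32% held at least 1 match and 0.173% held 3 or more. The median 3′ UTR length of these genes was 997 bases. The 5 members with a match had longer 3′ UTRs, from 1784 to 6337 bases. Those of Afp, Dlk1 and Gpc3 were shorter, at 201, 258 and 359 bases, while that of Igf2 had 3050. The shares are not matched for length. They cover tested genes only, whereas 4 of the 9 members averaged under 1 RPKM and were not tested. The matches of the members above 1 RPKM follow, with the seed match in capitals.
Hmga2 site 1: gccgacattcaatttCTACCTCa
Hmga2 site 2: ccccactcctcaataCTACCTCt
Hmga2 site 3: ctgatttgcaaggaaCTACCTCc
Hmga2 site 4: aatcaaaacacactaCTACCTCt
Igf2bp1 site 1: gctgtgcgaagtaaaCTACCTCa
Igf2bp1 site 2: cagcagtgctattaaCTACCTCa
Igf2bp1 site 3: gtataaatggatgaaCTACCTCa
Igf2bp1 site 4: acttttggttttaatCTACCTCt
Igf2bp2 site 1: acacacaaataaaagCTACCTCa
Igf2bp3 site 1: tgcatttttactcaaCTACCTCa
A match is a description of the letters and not evidence of binding, and let-7 itself was not measured in these poly(A) libraries.

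The libraries differed little in their summed RPKM, which ranged from 459380 to 484490, and read depth is unknown. Chd1 averaged 10.8 ± 0.67 RPKM in Chd1KD and 21.96 ± 0.75 in Control (SD, n = 2 each). Its log2 fold change was -0.96 (SE 0.07; limma, adjusted p = 0.012), on the log2(RPKM + 1) scale used for all fold changes here, which understates the change of low genes. Of 15 hepatocyte markers, 11 averaged at least 1 RPKM, while Ttr and Serpina1a were listed at 0 in all 4 libraries. A gene listed at 0 may still have been transcribed, since 10 genes averaging 5 RPKM or more carried a 0 in some library. The hepatocyte markers summed to 1263 and 1656 RPKM in Chd1KD and to 1815 and 2731 RPKM in Control, with Apoe alone at 784.4 and 1080 RPKM in Chd1KD and 1222 and 2023 RPKM in Control; the part of this difference in the results below was not tested. In bulk RNA, fewer cells of a type and less RNA per cell cannot be told apart.

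The members covered a wide range of levels, and the same 5 stood above 1 RPKM in every library. Afp was the most abundant, 1758th of all genes by mean RPKM. Igf2bp1, Igf2bp3 and Igf2bp2 followed, and Hmga2 lay just above the filter with a mean of 1.18 RPKM. Gpc3, Igf2, Lin28b and Dlk1 were below 1 RPKM in every library. The first of these below the filter was Gpc3, with a mean of 0.58 RPKM. The levels of Igf2bp1 and Igf2bp3 overlapped in the Control libraries and not in the Chd1KD libraries, so their order is clear only in Chd1KD.

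**Figure D1:**
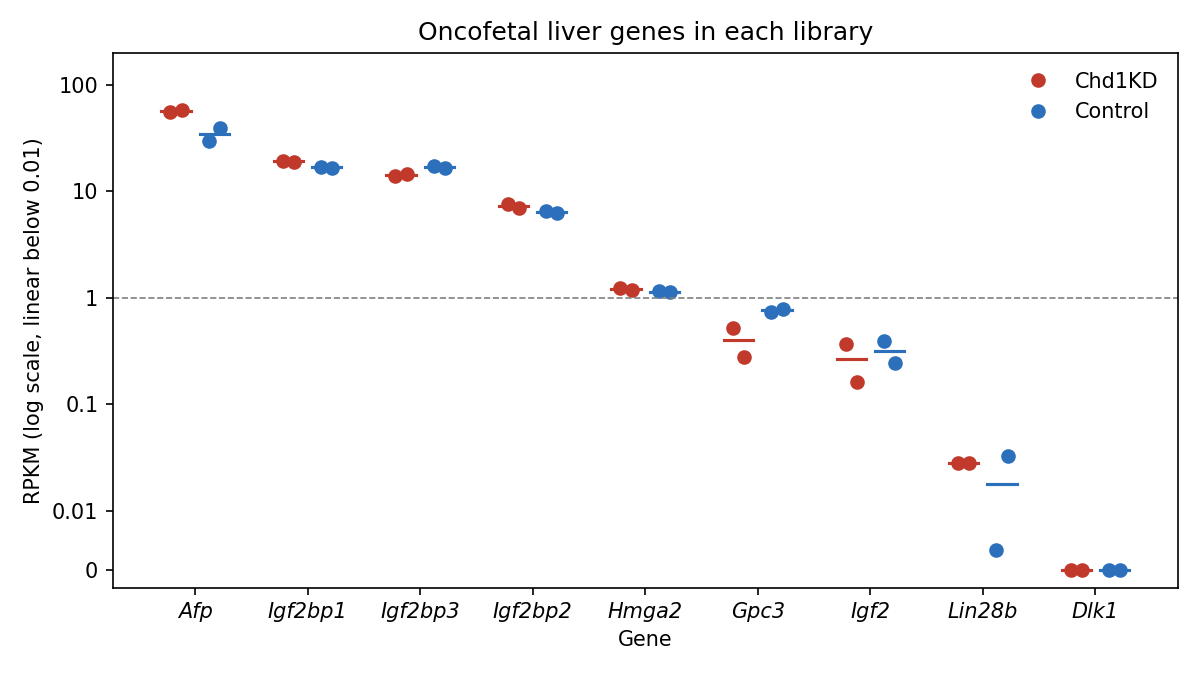
RPKM of the 9 matched oncofetal genes (y axis, log scale and linear below 0.01) in each Chd1KD and Control library; points are libraries, bars are means of 2, and the dashed line is 1 RPKM. The Afp points of Chd1KD (55.2 and 58.3) lie above those of Control (29.9 and 39.7), and Dlk1 is at 0 throughout.

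The comparison of Chd1KD with Control asked which mRNAs differ when Chd1 is lowered. Of the 5 members with a mean of at least 1 RPKM, none passed the test across all 10209 tested genes (limma, Benjamini-Hochberg adjusted p under 0.05), where 0.46% of all tested genes were called. By direction, 0.274% of all tested genes were called higher and 0.186% lower in Chd1KD, a balance that turned in some alternatives, such as 158 higher and 167 lower with the replicate block. Before adjustment 3 of the 5 had p under 0.05 (limma), Afp and Igf2bp1 with higher and Igf2bp3 with lower values in Chd1KD. The share over all tested genes was 18.5%, made up of 7.24% higher and 11.3% lower. The libraries of both groups were fully separated for each of the 5, and for 51.8% of all tested genes, of which 21.3% had the higher and 30.5% the lower values in Chd1KD (percent of all tested genes). The fold change was positive for 4 of the 5, with a median log2 fold change of 0.15, against -0.02 and 43.5% positive over all tested genes. All 5 were measured in the same 4 libraries, and the list was chosen with earlier results of these data known. These counts are therefore a description and not a test of the list.

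Afp had the largest log2 fold change among the 5 tested members. It is a protein-coding gene on chromosome 5 from 90490714 to 90508907 (GRCm38.p6, the assembly behind mm10, like all coordinates here). Afp measured 55.2 and 58.3 RPKM in Chd1KD, against 29.9 and 39.7 RPKM in Control. Both Chd1KD libraries were above both Control libraries, and the Control libraries differed from each other by a ratio of 1.33, more than the Chd1KD libraries (1.06). The means were 56.7 ± 2.15 RPKM in Chd1KD and 34.8 ± 6.90 RPKM in Control (SD, n = 2 each), a ratio of 1.63. On the log2 scale Afp differed by 0.70 (SE 0.12; limma, adjusted p = 0.077). Afp missed the threshold with all 4 libraries and passed it in the fit with the replicate number as a block (limma, adjusted p = 0.022). The labels state no such pairing, and that fit called 325 of all tested genes, against 47 without the block. Afp also passed in each fit that omitted a library. There a group has 1 library, whose spread is assumed to equal that of the other group, so these calls add no support. Without Control replicate 1 the log2 fold change was 0.50, and without Control replicate 2 it was 0.90. Over all alternatives the adjusted p ranged from 0.0028 to 0.26.

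The promoter of Afp is shown because Afp had the largest fold change of the tested members, from 250 bases before to 50 after the RefSeq start, at chr5:90490464-90490763 on the plus strand.
Afp promoter: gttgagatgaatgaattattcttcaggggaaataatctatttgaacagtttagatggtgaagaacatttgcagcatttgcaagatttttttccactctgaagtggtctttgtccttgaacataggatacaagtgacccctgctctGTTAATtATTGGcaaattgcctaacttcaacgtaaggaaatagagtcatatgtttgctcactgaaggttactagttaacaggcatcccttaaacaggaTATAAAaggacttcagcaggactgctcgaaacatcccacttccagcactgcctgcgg
Capitals mark motifs found on either strand, among 5 motifs: the letters GTTAAT, part of the site of the liver factor HNF1; the TATA box TATAAA; the CCAAT box; the GC box GGGCGG; and the E-box CACGTG. The Afp window held 1 GTTAAT starting 105 bases before the start. It also held 1 CCAAT box on the other strand starting 98 bases before the start and 1 TATAAA starting 7 bases before it. The GTTAAT and the CCAAT box letters stand almost side by side, and whether they are separate elements was not tested. Distances count from the RefSeq start, and the start used in these cells was not measured. Only these exact letters were searched. Inexact or longer HNF1 sites are therefore not marked, and the number of HNF1 sites is not given by this count. These motifs occur in 7.1%, 37.4% and 13.6% of 32851 mouse promoter windows of this length. The window had 40.0% G and C, against a median of 52.7% over all windows. Igf2bp1 had no window in the table. Windows of the remaining 3 tested members were richer in G and C, at 76.7% for Igf2bp2, 60.3% for Igf2bp3 and 57.7% for Hmga2. They held neither a GTTAAT nor a TATAAA on either strand.

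Zhx2, Zbtb20 and Zfhx3, the repressors of Afp named above, did not move together. Zhx2 measured 4.77 and 4.84 RPKM in Chd1KD and 4.82 and 5.67 RPKM in Control, and Zbtb20 measured 15.3 and 16.6 RPKM in Chd1KD and 13.4 and 18.1 RPKM in Control. The groups overlapped for both. Zfhx3 measured 8.56 and 8.52 RPKM in Chd1KD and 6.99 and 7.74 RPKM in Control (limma, adjusted p = 0.25). Of 19 tested regulators of Afp none passed over all genes, and at an unadjusted p under 0.05 2 were higher and 7 lower in Chd1KD (limma), against 7.24% and 11.3% of all tested genes. The median log2 fold change of the list was -0.09, against -0.02 over all tested genes. The smallest p values were those of Nfib, a nuclear factor I protein, at 4.96 and 5.11 RPKM in Chd1KD and 6.95 and 6.98 RPKM in Control, and of Hnf4a, the central hepatocyte nuclear receptor, at 35.5 and 40.7 RPKM in Chd1KD and 46.4 and 50.9 RPKM in Control (limma, adjusted p = 0.080 and 0.12). Nr5a2, a nuclear receptor that activates the Afp promoter, went the other way (limma, adjusted p = 0.15). It measured 2.94 and 3.47 RPKM in Chd1KD and 1.995 and 2.40 RPKM in Control. Trp53, also in the list, was lower in Chd1KD (limma, adjusted p = 0.14). Its values were 149.1 and 141.5 RPKM in Chd1KD and 177.8 and 165.4 RPKM in Control. Both genes were named after their values were seen.

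Afp lies in the albumin gene cluster, whose other members encode related plasma carriers. Alb measured 42.2 and 53.0 RPKM in Chd1KD and 18.6 and 55.6 RPKM in Control, so its groups overlapped and its Control libraries differed by a ratio of 2.99. Control replicate 1 was the lowest library for both Alb and Afp. Without it the log2 fold change of Alb turned from 0.54 to -0.23, while that of Afp stayed positive. Gc, the vitamin D binding protein, averaged 2.27 ± 0.15 RPKM in Chd1KD and 2.97 ± 1.28 RPKM in Control (SD, n = 2 each), and Afm, afamin, did not exceed 0.020 RPKM.

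Within 1 Mb of Afp, 13 other genes were tested, and none passed over all genes (limma, 5 at an unadjusted p under 0.05, against 18.5% of all tested genes). This window was chosen after the values were seen. Rassf6, a Ras association domain protein, lies across a gap of 94.2 kb from Afp and measured 11.3 and 9.51 RPKM in Chd1KD and 6.42 and 7.84 RPKM in Control (limma, adjusted p = 0.11). Ppbp, a platelet chemokine gene across a gap of 259.6 kb, measured 30.3 and 31.4 RPKM in Chd1KD and 13.8 and 20.3 RPKM in Control (limma, adjusted p = 0.082). Its neighbours Cxcl5, Cxcl3 and Cxcl2, also chemokine genes, had negative log2 fold changes of -0.43, -0.25 and -0.34, while the chemokine genes Cxcl15 and Cxcl1 between Cxcl3 and Cxcl2 had positive ones of 0.23 and 0.20. That of Cxcl15 was -0.48 without Control replicate 1. Positive and negative values were therefore interleaved along the window, with a median log2 fold change of 0.10 against -0.02 for the 666 tested genes of chromosome 5.

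**Figure D2:**
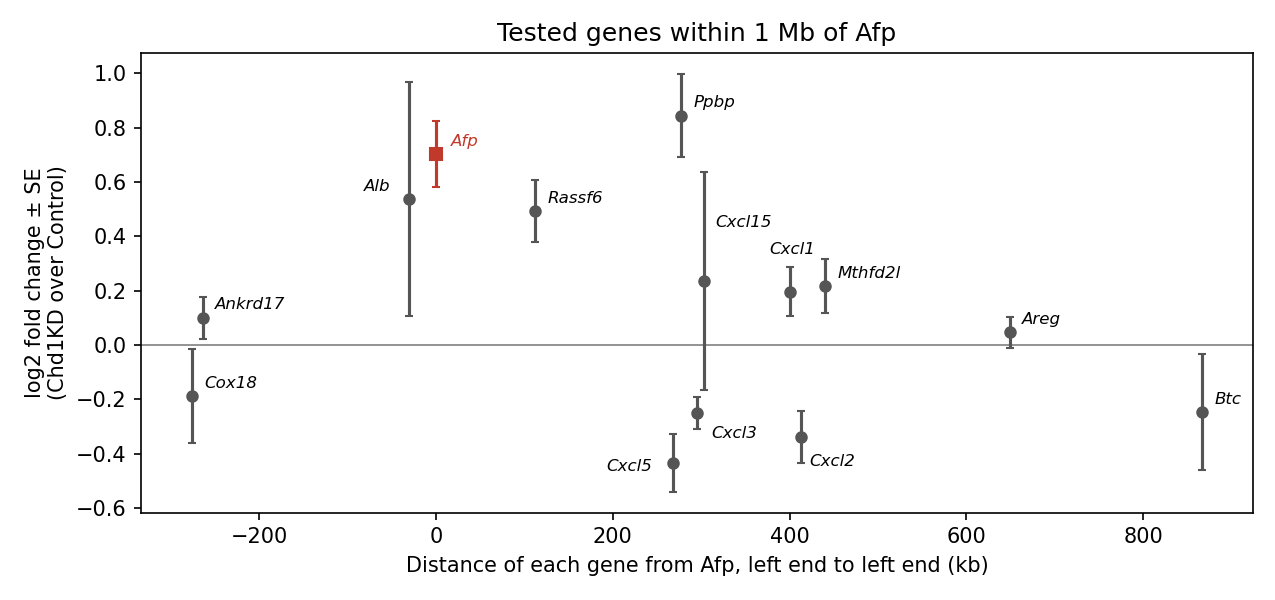
Log2 fold change of Chd1KD over Control (y axis, error bars are SE of limma) for Afp and the 13 other tested genes within 1 Mb, by distance from the left end of Afp to that of each gene (x axis, kb). Alb, Rassf6 and Ppbp lie nearest to the value of Afp, Alb with the widest error bar. Below 0 lie 5 genes, Cxcl5, Cxcl3 and Cxcl2 among them.

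The 3 tested genes with values most like those of Afp over the 4 libraries were 9930111J21Rik1, Ppbp and Csn3. Likeness was the root mean square difference of log2(RPKM + 1) after centring each gene on its mean, and it was 0.084, 0.084 and 0.10. The 3 genes were picked out of all tested genes for this likeness, so their values are not a separate observation. Csn3, a casein, measured 16.9 and 17.7 RPKM in Chd1KD and 10.4 and 13.7 RPKM in Control.

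The Igf2bp genes had similar summed levels in both groups, while their fold changes had different signs. Igf2bp1, on chromosome 11 from 95957163 to 96005944, measured 19.5 and 18.8 RPKM in Chd1KD and 16.9 and 16.7 RPKM in Control. Both Chd1KD libraries were above both Control libraries by more than the difference within a group. The means were 19.1 ± 0.53 RPKM in Chd1KD and 16.8 ± 0.18 RPKM in Control (SD, n = 2 each), with a log2 fold change of 0.18 (SE 0.06; limma, adjusted p = 0.20). Igf2bp2, on chromosome 16 from 22059009 to 22163299, measured 7.55 and 7.004 RPKM in Chd1KD and 6.59 and 6.34 RPKM in Control. Its groups did not overlap, and its log2 fold change was 0.15 (SE 0.07; limma, adjusted p = 0.34).

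Igf2bp3, on chromosome 6 from 49085218 to 49215469, was the only tested member with a negative fold change. It measured 14.1 and 14.7 RPKM in Chd1KD and 17.3 and 16.7 RPKM in Control. Both Chd1KD libraries were below both Control libraries. The means were 14.4 ± 0.42 RPKM in Chd1KD and 17.0 ± 0.41 RPKM in Control (SD, n = 2 each), a ratio of 0.85 and a log2 fold change of -0.22 (SE 0.06; limma, adjusted p = 0.15). The gene overlaps the protein-coding gene Malsu1, and the strand setting is not given in the sources used here. Reads of the 2 genes therefore cannot be told apart where they overlap. The same limit holds for the low members Hmga2, Gpc3 and Igf2, which overlap annotated long noncoding genes. The promoter window of Igf2bp3, at chr6:49214905-49215204 on the minus strand, is shown because the fold changes of Igf2bp3 and Afp have opposite signs.
Igf2bp3 promoter: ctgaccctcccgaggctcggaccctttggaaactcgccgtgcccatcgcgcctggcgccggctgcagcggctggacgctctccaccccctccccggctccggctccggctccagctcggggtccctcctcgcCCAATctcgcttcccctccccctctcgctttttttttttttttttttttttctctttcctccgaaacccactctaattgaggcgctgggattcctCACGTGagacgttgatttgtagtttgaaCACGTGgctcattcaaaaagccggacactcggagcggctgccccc
It held 1 CCAAT box and 2 E-boxes in capitals, and 7.15% of all windows held an E-box.

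Summed over the 3 genes, the family had 41.2 and 40.5 RPKM in Chd1KD and 40.8 and 39.7 RPKM in Control, so the groups overlapped in total. The ratio of Igf2bp1 to Igf2bp3 was 1.38 and 1.28 in Chd1KD, against 0.98 and 1.0 in Control. Igf2bp3 made up 34.3% and 36.3% of the family's RPKM in Chd1KD and 42.3% and 42.0% in Control. These ratios were formed after the values were seen and were not tested. Transcripts most like Igf2bp3 over the 4 libraries were Dock6, Ncln and Poglut3, with root mean square differences of 0.0020, 0.0046 and 0.0056. They too were picked out of all tested genes for this likeness, so their values are not a separate observation. Dock6 averaged 1.01 RPKM, just above the filter. Ncln, a component of a membrane protein complex of the endoplasmic reticulum, measured 32.5 and 33.6 RPKM in Chd1KD and 39.6 and 38.3 RPKM in Control.

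**Figure D3:**
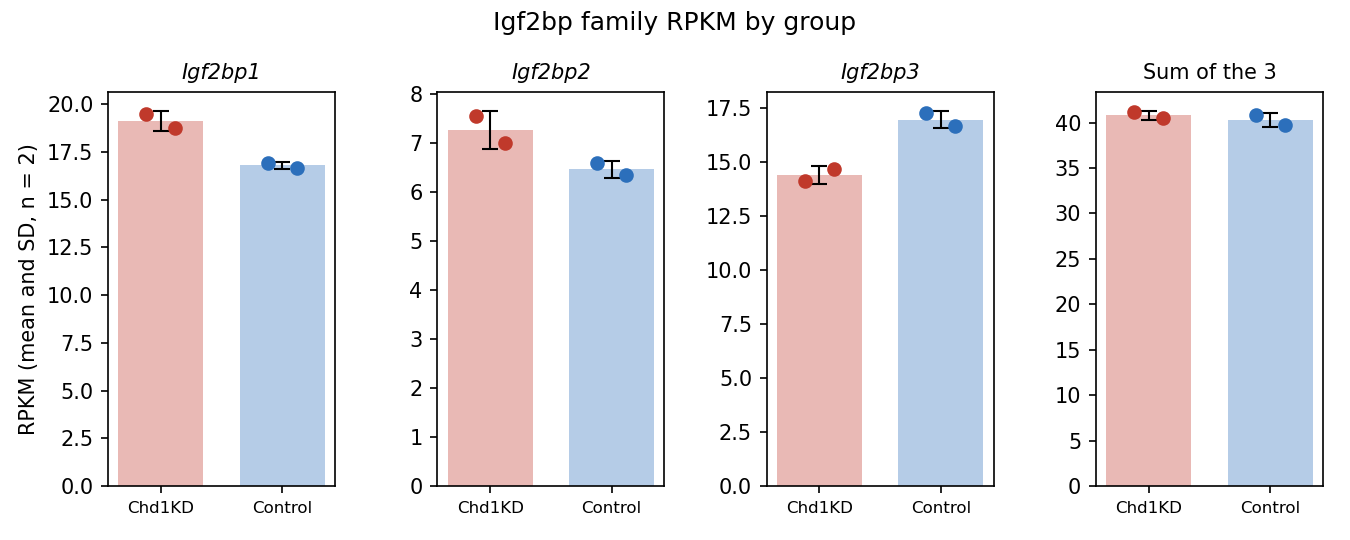
RPKM of Igf2bp1, Igf2bp2, Igf2bp3 and their sum (y axes from 0, with separate scales) in Chd1KD and Control; bars are means, error bars SD (n = 2) and points libraries. Igf2bp1 and Igf2bp2 are higher and Igf2bp3 lower in Chd1KD, and the sums overlap near 40.8 and 40.3 RPKM.

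Hmga2, on chromosome 10 from 120361268 to 120476469, was low and close between groups. It measured 1.23 and 1.18 RPKM in Chd1KD and 1.17 and 1.12 RPKM in Control, with a log2 fold change of 0.04 (SE 0.10; limma, adjusted p = 0.88). Its relative Hmga1, also an architectural chromatin protein and a let-7 target, measured 193.9 and 183.5 RPKM in Chd1KD. In Control it was listed at 0 in replicate 1 and measured 169.9 RPKM in replicate 2, so no fold change is given. Among 8 tested genes of the HMG families none passed over all genes (limma, 1 at an unadjusted p under 0.05, against 18.5% of all tested genes). That gene was Hmgb2, a proliferation-associated HMG-box protein, at 97.9 and 96.6 RPKM in Chd1KD and 127.6 and 122.3 RPKM in Control (limma, adjusted p = 0.061).

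Lin28b was near 0, at 0.028 and 0.028 RPKM in Chd1KD and 0.0034 and 0.033 RPKM in Control, and Lin28a was listed at 0 in all 4 libraries. The 4 let-7 matches of Lin28b therefore lie in a transcript that was hardly present. Among 13 tested genes of let-7 processing and silencing none passed over all genes. At an unadjusted p under 0.05, 0 were higher and 2 lower in Chd1KD (limma), against 7.24% and 11.3% of all tested genes. Ago2, the slicing Argonaute, measured 17.2 and 19.7 RPKM in Chd1KD and 20.8 and 23.6 RPKM in Control (limma, adjusted p = 0.21), and Dicer1 7.52 and 6.99 RPKM in Chd1KD and 6.84 and 6.88 RPKM in Control.

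Of 29 tested let-7 target genes, Igf2bp1, Igf2bp2, Igf2bp3 and Hmga2 among them, none passed over all genes. At an unadjusted p under 0.05, 3 were higher and 3 lower in Chd1KD (limma), against 7.24% and 11.3% of all tested genes. The median log2 fold change of the 29 was 0.05, and 0.04 without Hmga1. Dusp9, a MAP kinase phosphatase, measured 67.3 and 63.4 RPKM in Chd1KD and 56.9 and 51.4 RPKM in Control, while Ccnd1, cyclin D1, measured 312.5 and 317.4 RPKM in Chd1KD and 359.5 and 380.3 RPKM in Control (limma, adjusted p = 0.14 and 0.13). Myc measured 63.7 and 59.2 RPKM in Chd1KD and 67.6 and 67.1 RPKM in Control. Over all tested genes the median log2 fold change was 0.01 for the 914 with a match in the 3′ UTR and -0.02 for those without. The 17 genes with 3 or more matches had a median of -0.07, and 7 of them were positive. Among 12 tested mRNAs known to be bound by Igf2bp proteins none passed. At an unadjusted p under 0.05, 2 were higher and 0 lower in Chd1KD (limma), against 7.24% and 11.3% of all tested genes. The median log2 fold change of the 12 was 0.04. The smallest p was that of Pdlim7, at 25.8 and 23.9 RPKM in Chd1KD and 20.5 and 21.04 RPKM in Control (limma, adjusted p = 0.14). Next came Abcb1b, a drug efflux pump with a close paralog that may share its reads, at 24.7 and 22.6 RPKM in Chd1KD and 19.7 and 20.98 RPKM in Control (limma, adjusted p = 0.20).

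Gpc3, on chromosome X from 52272426 to 52613974, was low and measured lower in Chd1KD. It had 0.52 and 0.28 RPKM in Chd1KD and 0.74 and 0.79 RPKM in Control. The groups did not overlap, but the gene was below the filter and was tested only in the alternative without one (limma, adjusted p = 0.29). Its relatives Gpc4 and Gpc1 were more abundant. Gpc4, its neighbour on the X chromosome, measured 16.3 and 14.7 RPKM in Chd1KD and 11.04 and 12.9 RPKM in Control (limma, adjusted p = 0.14). Gpc1 measured 30.5 and 29.4 RPKM in Chd1KD and 33.0 and 35.6 RPKM in Control (limma, adjusted p = 0.19).

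Of 12 tested genes of glypican signalling none passed over all genes. At an unadjusted p under 0.05, 0 were higher and 2 lower in Chd1KD (limma), against 7.24% and 11.3% of all tested genes. Ihh, a hedgehog ligand, measured 3.10 and 2.44 RPKM in Chd1KD and 4.81 and 5.04 RPKM in Control (limma, adjusted p = 0.066). Ext1, a heparan sulfate polymerase, measured 65.4 and 60.9 RPKM in Chd1KD and 74.6 and 70.7 RPKM in Control. Notum, an extracellular enzyme that inactivates WNT proteins, was named after its values were seen. It was below the filter, at 0.043 and 0.043 RPKM in Chd1KD and 0.54 and 0.88 RPKM in Control.

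The imprinted members were at or near 0. Igf2, on chromosome 7 from 142650768 to 142666816, had 0.37 and 0.16 RPKM in Chd1KD and 0.40 and 0.24 RPKM in Control, with overlapping groups. The reads were placed on 2 of its 3 transcripts, on a different one in Chd1KD replicate 2 from the other libraries. Dlk1, on chromosome 12 from 109452485 to 109463336, was listed at 0 in all 4 libraries for each of its 5 transcripts, and so was the imprinted noncoding gene Meg3 in the same domain. Of 9 listed genes of the Dlk1 domain 7 were listed at 0 in all libraries, and only Wars, a tRNA synthetase gene, reached the filter (38.3 ± 2.20 RPKM in Chd1KD and 38.6 ± 1.97 in Control; SD, n = 2 each). Of 17 matched genes around Igf2 8 were listed at 0 throughout, including Cdkn1c and Phlda2. Dlk1 is a ligand-like protein of the Notch pathway. Of 6 tested genes of that family none passed over all genes (limma, 0 at an unadjusted p under 0.05, against 18.5% of all tested genes). Notch3 was among them, at 1.36 and 0.96 RPKM in Chd1KD and 1.16 and 0.68 RPKM in Control.

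Of 14 genes that act on imprints, 9 reached the filter and 5 did not, with 2 of the 5 listed at 0 in all libraries. Ctcf, which binds the control region between H19 and Igf2, measured 25.99 and 27.0 RPKM in Chd1KD and 28.5 and 28.2 RPKM in Control (limma, adjusted p = 0.43). Of the 9 tested none passed over all genes, 1 was higher and 3 were lower in Chd1KD at an unadjusted p under 0.05 (limma), and the median log2 fold change was -0.14, against 7.24%, 11.3% and -0.02 over all tested genes. Uhrf1, which brings Dnmt1 to replicated DNA, measured 52.1 and 53.8 RPKM in Chd1KD and 61.3 and 62.2 RPKM in Control, and Arid4b 10.2 and 10.4 RPKM in Chd1KD and 7.86 and 8.67 RPKM in Control (limma, adjusted p = 0.13 and 0.14). Of the activators Plagl1 and Plag1, Plagl1 was listed at 0 in all libraries and Plag1 reached at most 0.39 RPKM.

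The receptors and binding proteins of IGF2 were unevenly expressed. Igf1r, its signalling receptor, did not exceed 0.016 RPKM. Igf2r, which clears IGF2, measured 1.47 and 1.18 RPKM in Chd1KD and 0.93 and 0.95 RPKM in Control (limma, adjusted p = 0.29). The insulin receptor gene Insr, named after its values were seen, averaged 6.45 ± 0.49 RPKM in Chd1KD and 6.05 ± 1.13 RPKM in Control (SD, n = 2 each). Igfbp4 was abundant, at 581.4 and 587.8 RPKM in Chd1KD and 644.2 and 801.6 RPKM in Control, and Igfbp1 measured 29.98 and 41.1 RPKM in Chd1KD and 42.5 and 69.8 RPKM in Control (limma, adjusted p = 0.20 and 0.23). The Control libraries differed for both. Of 12 tested genes of the IGF axis none passed over all genes. At an unadjusted p under 0.05, 1 was higher and 2 were lower in Chd1KD (limma), against 7.24% and 11.3% of all tested genes. The median log2 fold change of the 12 was 0.00 (-0.0011), against -0.02 over all tested genes.

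Of 20 tested other oncofetal and progenitor genes, 3 had positive and 17 negative fold changes. None passed over all genes, 8 had an unadjusted p under 0.05 and all 8 were lower in Chd1KD (limma), where 11.3% of all tested genes were at that level in that direction. The median log2 fold change was -0.09. Spp1, osteopontin, measured 131.9 and 137.0 RPKM in Chd1KD and 188.8 and 161.7 RPKM in Control, and the keratin gene Krt7 measured 4.56 and 3.45 RPKM in Chd1KD and 5.98 and 6.58 RPKM in Control (limma, adjusted p = 0.10 for each). Many of these genes also mark bile duct epithelium. The 9 cholangiocyte markers summed to 160.1 and 164.3 RPKM in Chd1KD and to 224.8 and 198.6 RPKM in Control. Of the 9, 4 averaged under 1 RPKM. Among these, Krt19 had 0.085 and 0 RPKM in Chd1KD and 1.13 and 1.04 RPKM in Control. It was below the filter and its difference was not tested. Spp1, at the values above, made up most of each sum. Spp1, Krt7, Krt19, Sox9 and Epcam are in both lists, so the sums are not a separate observation. The part of the cholangiocyte markers in these differences was not tested.

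Of 25 adult hepatocyte genes 19 were under the filter, and 13 of these were listed at 0 in all libraries. Of the 6 tested none passed over all genes, and 1 had an unadjusted p under 0.05 (limma, against 18.5% of all tested genes). That was Apob, the main apolipoprotein of secreted VLDL, at 8.32 and 9.92 RPKM in Chd1KD and 11.7 and 13.6 RPKM in Control. Markers of blood-forming cells, which fill the fetal liver, were near 0: of 10 erythroid markers 9 averaged under 1 RPKM, and the exception was the widely expressed transferrin receptor gene Tfrc. All 8 matched lymphocyte markers, 13 of 14 macrophage, 11 of 14 endothelial and 14 of 15 fibroblast and stellate markers also averaged under 1 RPKM. The fibroblast exception was Dcn, the proteoglycan decorin, at 389.5 ± 5.26 RPKM in Chd1KD and 408.0 ± 31.4 RPKM in Control (SD, n = 2 each).

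**Figure D4:**
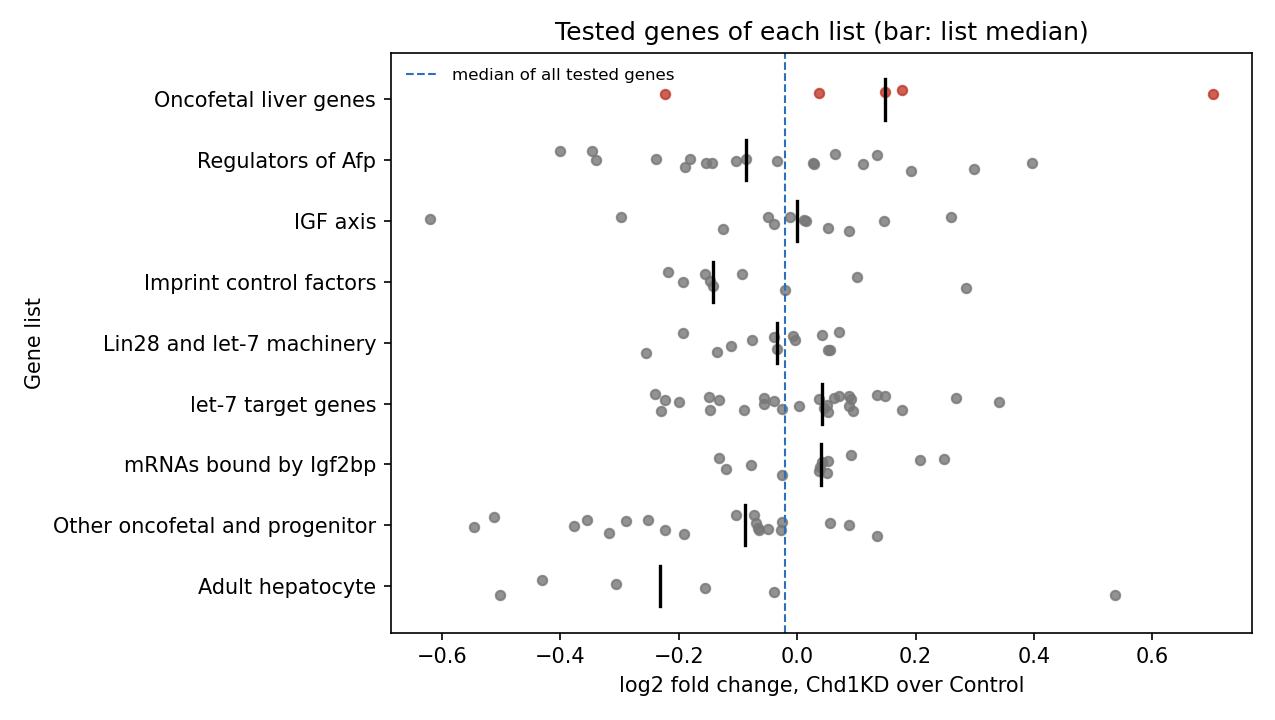
Log2 fold changes of Chd1KD over Control (x axis) for the tested genes of the member list and of 8 related lists (y axis); points are genes, black bars list medians, and the dashed line the median of all tested genes (-0.02). Hmga1, at 0 in a Control library, is not drawn; Afp lies farthest right.

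**Figure D5:**
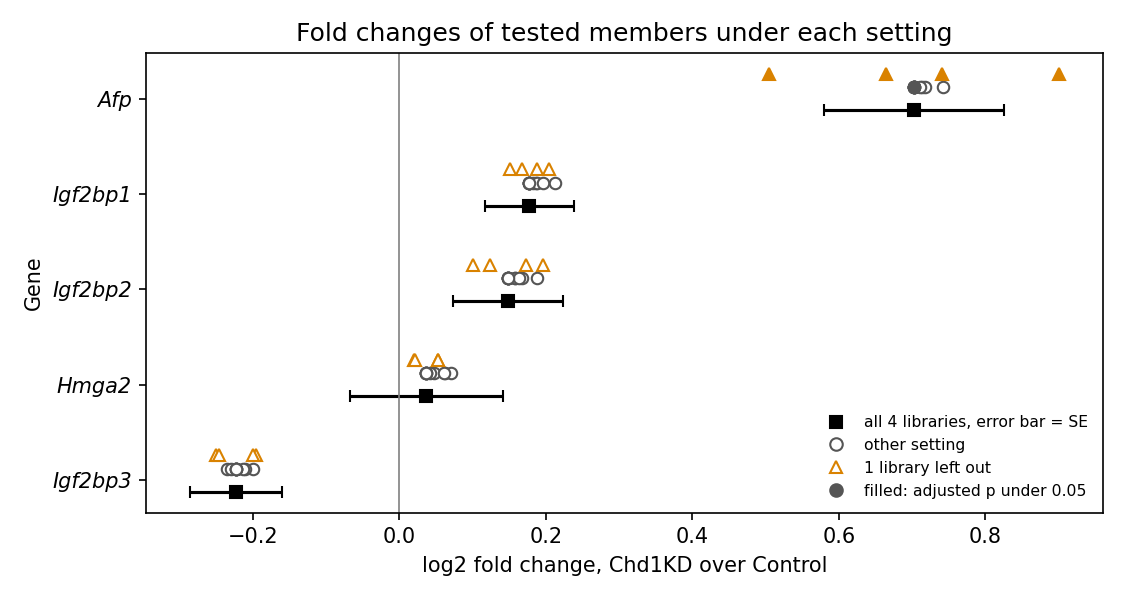
Log2 fold change of each tested member (x axis) with all 4 libraries (squares, error bars are SE), under other settings (circles) and with 1 library left out (triangles); filled circles and triangles have an adjusted p under 0.05 (limma). Afp ranges from 0.50 to 0.90 and holds the only filled points, and no member changes sign.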

How the data were processed

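RPKM for 30582 RefSeq transcripts in 4 libraries was deposited by the authors, per the file headers. TopHat 1.4.1, Cufflinks 1.3.0 and mm10 are named in the submitters' processing notes; no source used here gives the annotation release, the strand setting or any filter. Gene symbols came from NCBI's GRCm38.p6 table (30003 transcripts) and GENCODE M21 (180). The 399 left unnamed held 0.304% of the summed RPKM. RPKM was then added up per gene. The members and lists were chosen with earlier results of these data known.

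A gene entered the test when it averaged 1 RPKM or more. Chd1KD was set over Control with limma 3.58.1 (R 4.3.3), using log2(RPKM + 1), a variance trend and no replicate block; the procedure was checked on simulated data. With 2 libraries a group, exact permutation reaches no two-sided p under 0.333, so none was run. RPKM carries no read counts: depth is unknown and no counting interval is given. Genes were named if members, Chd1, preset relatives or regulators, or the 2 smallest p values of a list without calls; not each is described. Cxcl5, Cxcl3, Cxcl2, Cxcl15, Cxcl1, Nr5a2, Trp53, Krt19, Insr and Notum were named after their values were seen. So were genes given only as listed at 0 or as markers. Alternatives numbered 15, with 1 more added after the data were seen.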

Additional observations from a re-analysis of the deposited data

How the results depend on the processing

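No alternative changed the sign of a tested member. Igf2bp1, Igf2bp2, Igf2bp3 and Hmga2 passed the test in none of the alternatives, with adjusted p of at least 0.085 (limma). The number of members called was 0 with all libraries, 1 (Afp, log2 fold change 0.70) with the replicate block, and 1 in each fit that left out 1 library, where the fold change of Afp ranged from 0.50 to 0.90. In those fits the lone library of a group is assumed to vary like the other group, so their calls do not show stability. The replicate numbers carry no stated pairing, and the deviations of same-numbered libraries correlated at r = 0.22 across genes. The median log2 fold change of the tested members was 0.15, 0.19 after scaling each library to the same total, and 0.10 to 0.20 with 1 library left out. Over all tested genes 47 were called, 0 without a filter (2153 at an unadjusted p under 0.05, limma), 71 with a mean of at least 5 RPKM, 95 after scaling to the same total, 6 without a variance trend, 92 with a robust trend, 325 with the replicate block, 12 with the most abundant transcript, 75 with genes listed at 0 left out (chosen after seeing the data), and 49 to 236 with 1 library left out. More genes were called higher than lower in Chd1KD with all libraries (28 and 19), and fewer with the replicate block (158 and 167), with the most abundant transcript (5 and 7) and without Chd1KD replicate 1 (19 and 30). Among other named genes the sign turned for Wars after scaling to the same total (0.018), and with 1 library left out for Alb (range -0.23 to 1.302), Gc (-0.58 to 0.091), Cxcl15 (-0.48 to 0.95), Zbtb20 (-0.18 to 0.23), Scd2 (-0.18 to 0.25), Wars (-0.069 to 0.045), Insr (-0.077 to 0.25) and Notch3 (-0.0073 to 0.36). The causes were not tested. Unknown depth limits what can be said of members under 1 RPKM.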
